A study of Prunus persica and Prunus armeniaca with 129 samples.

Results

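The 4 genes described here, Prupe.2G288400, Prupe.3G168200, Prupe.6G262200 and Prupe.8G195100, are peach gene models that the study names as oxidoreductases raised during ecodormancy in the floral buds of both apricot and peach. They were taken by these identifiers from the count tables, 4 of 26872 genes. Prupe.2G288400 and Prupe.3G168200 carry an annotation to the glucose-methanol-choline (GMC) oxidoreductase family in the study's gene sheets, and the other 2 are known here only as oxidoreductases. All 4 passed the filter on low counts in each species, among 22472 genes tested in apricot and 22574 in peach, and a gene that passes such a filter only through the group where it is high had to differ. The study chose them for higher counts at ecodormancy in these same libraries, so their direction there is a description and no independent evidence.

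Floral buds of temperate fruit trees are first held in endodormancy, a rest that only prolonged chilling releases, and then in ecodormancy, in which cold weather alone delays growth. Oxidoreductases move electrons between a donor and an acceptor, and many of them make or consume reactive oxygen species such as hydrogen peroxide, which are widely studied as signals of dormancy release. GMC oxidoreductases are flavin enzymes that oxidize alcohols, and an Arabidopsis member of the family, HOTHEAD, is known for its part in making the cuticle of floral organs.

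RNA was sequenced from 60 apricot (Prunus armeniaca) libraries and 69 peach (Prunus persica) libraries. The apricot trees, grown in France, were of the early blooming genotypes A2137 (Bakour) and A1956 (Palsteyn) and the late blooming genotypes A660 (Bergeron) and A1267 (Badami), followed over chill hour totals of 0, 100, 400 and then 800 and at the sepal visible and petal visible stages. The peach trees, grown in South Carolina, were the low chill genotypes A209 and A340 and the high chill genotypes A318 and A323 of 1 cross, collected at 0, 100 and 600 chill hours and at pre-bloom, and at 1000 chill hours in the high chill pair only. At 800 chill hours the early apricots were sampled as flowers and the late apricots as buds. The trees of a genotype are clones, grafted in apricot, none was treated, and each phenotype is represented by 2 genotypes, so a p-value measures the spread between trees of these genotypes. The study placed A2137 at 400 chill hours, A660 at 800 chill hours and the low chill peaches at 600 chill hours in ecodormancy from their whole transcriptomes, together with bloom dates in apricot and predicted chill hours in peach.

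Library totals ranged between 7593825 and 26253101 counts in apricot and between 494799 and 26858662 in peach, where 9 libraries lay under the species median divided by 4. Levels are given as CPM, read counts scaled to a common library size after TMM normalization. A level of 3 counts in a library, taken as a floor that covers counting error only, corresponded to 0.0974 to 0.433 CPM in the apricot libraries and 0.0891 to 5.81 CPM in those of peach. DAM6 (ppa010714m), a MADS-box gene of dormancy maintenance, was at 94.3 to 835 CPM in apricot at 0 chill hours and at 0.335 to 3.95 CPM at the sepal and petal visible stages. Apricot and peach libraries were sequenced and normalized separately, so levels are set side by side and were not tested between the species, and levels of different genes are not compared because their lengths were not at hand.

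At the ecodormant time points all 4 oxidoreductase genes were higher in both species. In apricot, buds of A2137 at 400 and A660 at 800 chill hours exceeded the earlier chill time points of the same genotypes for 4 of 4 genes, where 27.2% of all genes tested were called higher and 22.8% lower. In peach at 600 chill hours, the low chill genotypes exceeded the high chill genotypes for 4 of 4 genes, where 22.9% of all genes were called higher and 19.5% lower. With the test set against a 2-fold change in place of no change, the 4 genes were again called higher in both comparisons, where 9.46% of genes in apricot and 9.83% in peach were. The median log2 fold change of the 4 genes was 4.09 in apricot and 3.67 in peach, against 0.02 over all genes in each species. Below, groups of libraries are described as overlapping or not. How often groups separate over all genes was not counted, and the 4 genes were chosen for this direction in these libraries. Separation is thus a description and no added evidence. In whole buds, more cells that express a gene and more RNA per cell cannot be told apart.

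**Figure D1:**
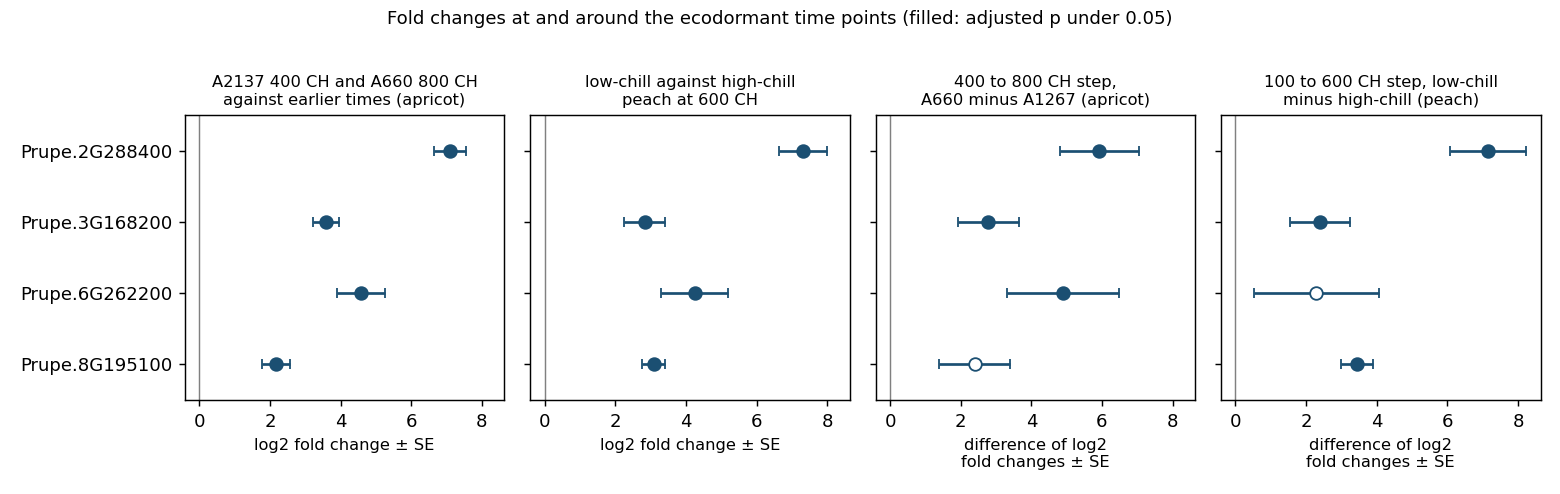
Log2 fold changes of the 4 oxidoreductase genes (edgeR, points with bars of 1 standard error, filled where the adjusted p was under 0.05). The panels on the left give the apricot ecodormant buds against earlier time points and low against high chill peach at 600 chill hours, with all 4 genes above 0 and Prupe.2G288400 farthest out at 7.10 and 7.32; the panels on the right give the difference between genotypes in the step itself, in which Prupe.8G195100 in apricot (2.39) and Prupe.6G262200 in peach (2.29) did not pass.

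Prupe.2G288400, annotated as a GMC oxidoreductase, had the largest fold change of the 4 in both species. It was at 160 and 152 CPM in the A2137 buds at 400 chill hours and at 22.1, 75.5 and 2.16 CPM in the A660 buds at 800 chill hours, against 0.152 to 0.861 CPM in the 12 earlier libraries of these genotypes. The groups did not overlap, although A660 replicate 3 lay far under its companions. The log2 fold change was 7.10 ± 0.46 (SE; edgeR, adjusted p = 4.33e-16), a 137-fold difference that exceeded those of 99.4% of all genes. Within A2137 the step from 100 to 400 chill hours was 8.05 ± 0.76 on the log2 scale (adjusted p = 3.90e-11), and within A660 the step from 400 to 800 chill hours was 6.04 ± 0.62 (adjusted p = 2.06e-10). The A660 step was 4.94 without replicate 2 of every group, 6.85 without replicate 3, and 6.57 without A660 replicate 3 at 800 chill hours, so its size moved with single libraries while the call held.

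The rise of Prupe.2G288400 was gone by the next stage. At sepal visible it was at 0.163, 0.246 and 0.185 CPM in A2137 and at 0.656, 0.815 and 0.593 CPM in A660, log2 fold changes of -9.55 ± 0.71 (adjusted p = 1.82e-13) and -5.60 ± 0.58 (adjusted p = 2.15e-10) against the ecodormant buds of the same genotype. The A660 value was -4.30 without replicate 2 of every group. A2137 flowers at 800 chill hours had a second, small rise, with 1.85, 1.65 and 1.69 CPM against 0.186, 0.248 and 0.348 CPM in petal visible buds (2.61 ± 0.73, adjusted p = 0.00241), which did not pass without replicate 1 of every group (adjusted p = 0.0879). In A1956 and A1267, in which no ecodormant collection was identified, the gene stayed between 0.208 and 1.24 CPM in all libraries of all stages.

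In peach, Prupe.2G288400 was at 157, 21.3, 101.2 and 90.0 CPM in A209 and at 1.60, 59.7, 111 and 80.0 CPM in A340 at 600 chill hours, against 0.0908 to 1.91 CPM in the high chill A318 and 0.0566 to 0.587 CPM in the high chill A323. The groups overlapped only through A340 replicate 1, which lay within the range of A318. The log2 fold change of low against high chill genotypes was 7.32 ± 0.67 (edgeR, adjusted p = 4.67e-14) 7.54 without that library and 6.73 without replicate 4 of every group. The steps from 100 to 600 chill hours were 7.47 ± 0.89 in A209 (adjusted p = 6.53e-10), 6.55 without replicate 1 and 8.25 without replicate 2 of every group, and 7.52 ± 0.88 in A340 (adjusted p = 4.70e-10), 8.33 without replicate 1 and 6.79 without replicate 3. At pre-bloom the gene was down to 9.68, 1.06, 0.891 and 0.417 CPM in A209, where the value of replicate 1 rests on 5 counts, and to 3.06, 2.18, 0.98 and 4.82 CPM in A340. These steps were -6.28 ± 0.92 (adjusted p = 9.40e-07) and -4.65 ± 0.81 (adjusted p = 1.85e-05), the A340 step moving to -3.78 without replicate 3 of every group and to -5.44 without the 9 shallow libraries.

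The high chill peaches showed a smaller and later rise of Prupe.2G288400. By the chilling requirements that the study cites, A318 had met its requirement at 1000 chill hours and A323 had not. The study took A318 at this time as putatively ecodormant, although its libraries lay nearer to endodormant buds. The dormancy state itself was not assayed. At 1000 chill hours A318 had 13.1, 8.99, 5.57 and 3.58 CPM, above each of its libraries at 600 chill hours, and A323 had 4.08, 3.16, 2.10 and 0 CPM, with 1 library at a count of 0. The steps were 3.18 ± 0.91 (adjusted p = 0.00663) and 2.99 ± 1.0 (adjusted p = 0.0288). Replicates 1 to 3 of A318 and replicates 2 and 4 of A323 at 1000 chill hours were among the shallow libraries, and without the shallow libraries the A318 step was 2.26 (adjusted p = 0.126), while it was 3.91 without replicate 3 of every group. Neither call was firm to the loss of 1 replicate number: the A318 step did not pass without replicate 2 or 4 (adjusted p = 0.0676 and 0.0569), nor the A323 step as each of the 4 was left out (adjusted p = 0.0507 to 0.122). At pre-bloom A318 was lower again (-2.98 ± 0.86, adjusted p = 0.00778), which did not pass without replicate 2 (adjusted p = 0.0543) or without the shallow libraries (-2.09, adjusted p = 0.187).

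**Figure D2:**
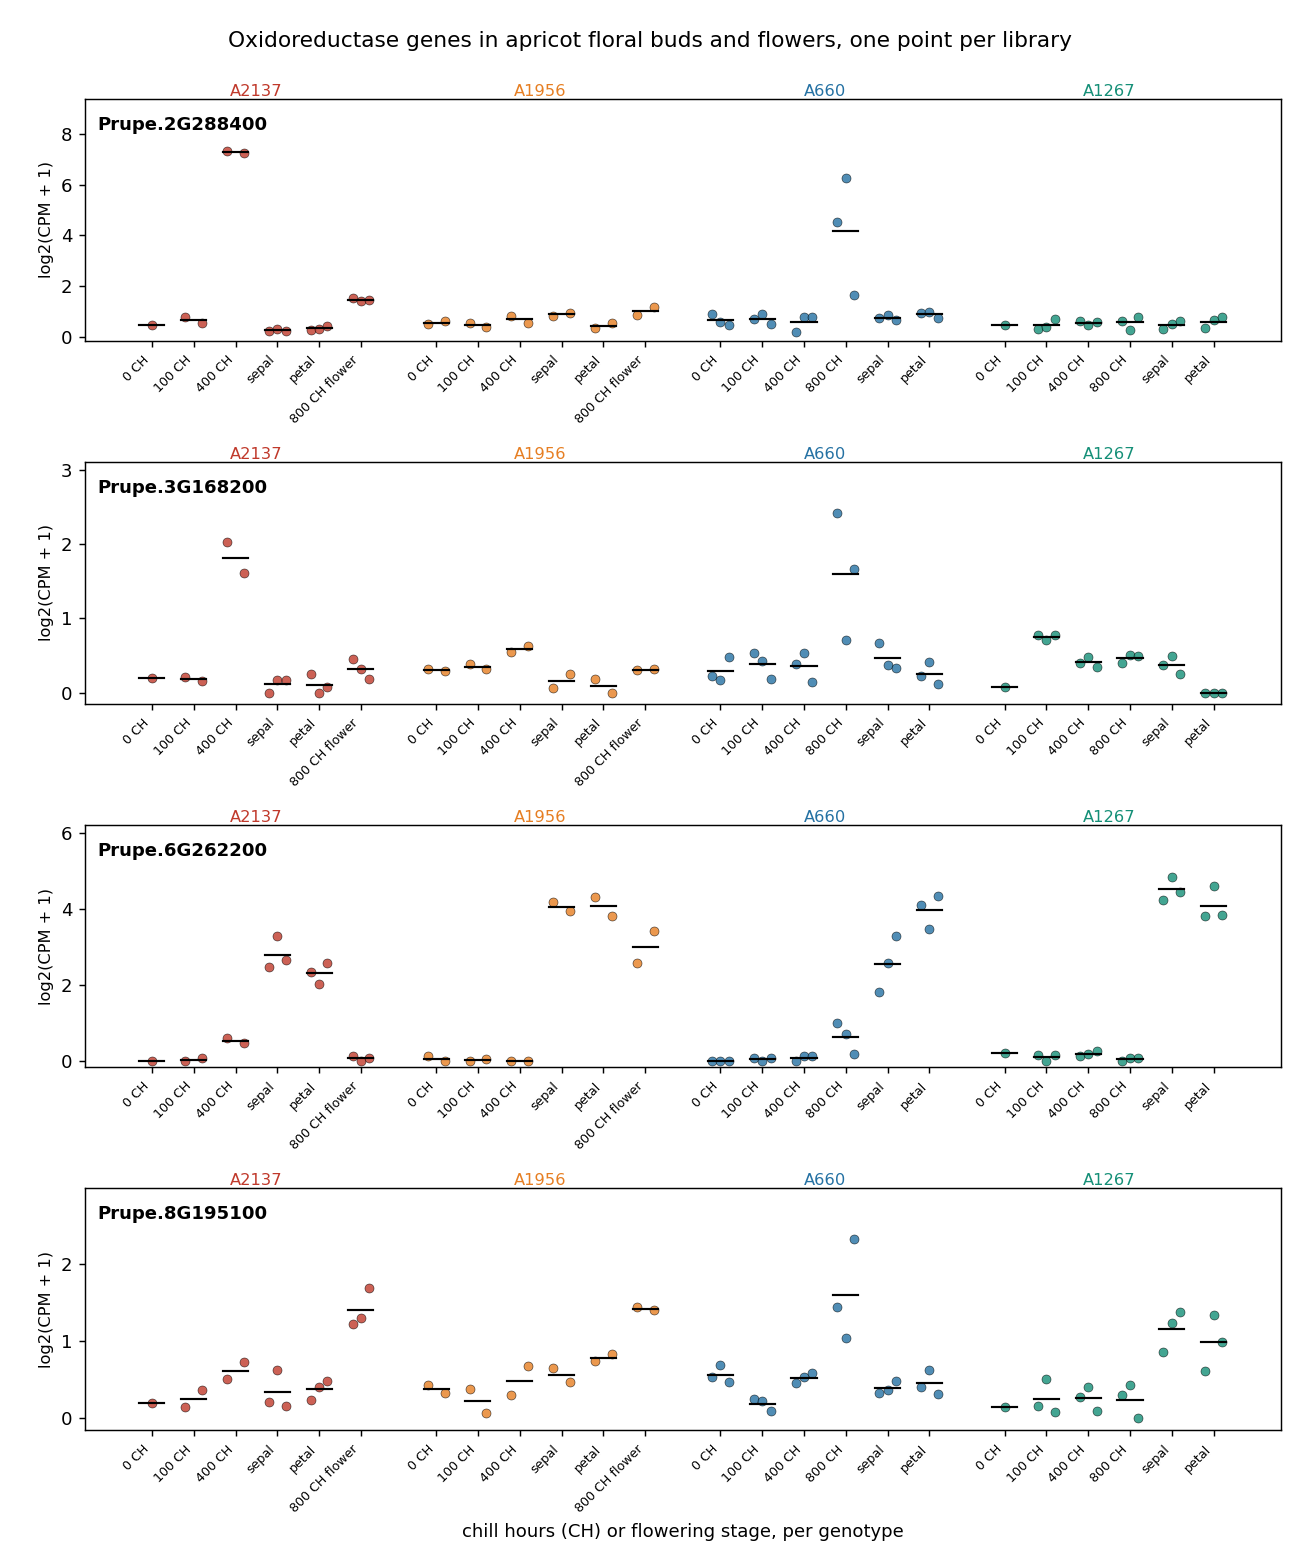
Levels of the 4 genes in the apricot libraries, as log2(CPM + 1), by genotype and by time point or stage in order of sampling, with 1 point for each library and a line at the mean of the points. Prupe.2G288400 and Prupe.3G168200 stand out at 400 chill hours in A2137 and at 800 chill hours in A660, while Prupe.6G262200 is highest at the sepal and petal visible stages in all 4 genotypes.

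Prupe.3G168200, the other gene annotated as a GMC oxidoreductase, followed the same course at a low count. The A2137 buds at 400 chill hours had 3.09 and 2.05 CPM and the A660 buds at 800 chill hours had 4.37, 0.637 and 2.16 CPM, against 0.1 to 0.450 CPM in the 12 earlier libraries. The groups did not overlap, and the lowest ecodormant value, in A660 replicate 2, rests on 9 counts. This was a log2 fold change of 3.59 ± 0.36 (edgeR, adjusted p = 1e-10), with 4.14 ± 0.68 within A2137 (adjusted p = 4.73e-06) and 3.01 ± 0.56 within A660 (adjusted p = 2.47e-05). The A660 step was 2.14 without replicate 1 and 3.92 without replicate 2 of every group.

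At sepal visible Prupe.3G168200 was at 0, 0.123 and 0.123 CPM in A2137 and at 0.591, 0.296 and 0.264 CPM in A660, lower than in the ecodormant buds by log2 fold changes of -4.74 ± 0.64 (adjusted p = 2.00e-07) and -2.61 ± 0.51 (adjusted p = 4.25e-05). In A1956 it was at 0.0481 and 0.195 CPM at sepal visible, against 0.460 and 0.543 CPM at 400 chill hours (-2.08 ± 0.84, adjusted p = 0.0383). A1956 has only replicates 1 and 2, so leaving out either left 1 library in each of its groups. The fold change was then -1.48 without replicate 1 and -3.05 without replicate 2. The call was also lost without replicate 3 of the other genotypes (-2.08, edgeR, adjusted p = 0.0618), which removes no A1956 library. In A1267 the gene had counts of 0 in all 3 petal visible libraries, against 0.299, 0.412 and 0.185 CPM at sepal visible, which was at least 1.10-fold lower with a floor of 3 counts in each library (adjusted p = 0.00339, and 0.0779 without replicate 2). The early against late difference at sepal visible (-1.69 ± 0.56, adjusted p = 0.0212) did not pass without replicate 1 (-0.90, adjusted p = 0.434) or without replicate 2 (-2.30, adjusted p = 0.0747).

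In peach at 600 chill hours, Prupe.3G168200 was at 5.87, 2.13, 7.37 and 2.23 CPM in A209 and at 2.99, 14.7, 3.37 and 6.70 CPM in A340, against 0.295, 1.39, 0 and 1.23 CPM in A318 and 0.294, 0.697 and 1.19 CPM in A323. Each low chill library lay above each high chill library. The log2 fold change was 2.83 ± 0.59 (edgeR, adjusted p = 6.28e-05). From 100 to 600 chill hours it was 3.68 ± 0.81 in A340 (adjusted p = 0.000271) and 2.20 ± 0.78 in A209 (adjusted p = 0.0280). The A209 step was lost as each of the 4 replicate numbers was left out (adjusted p = 0.0534 to 0.126). At 1000 chill hours the gene was at 0 to 7.47 CPM in the high chill A318 (median 2.37) and at 2.14 to 3.39 CPM in the high chill A323. These ranges overlapped that of the low chill libraries at 600 chill hours, and neither high chill step from 600 chill hours was called. At pre-bloom the gene was lower in A340 (-3.05 ± 0.90, adjusted p = 0.0109), a call lost without replicate 2 (adjusted p = 0.105) with values of -3.70 without replicate 1 and -3.77 without the shallow libraries, and in A318 relative to 1000 chill hours (-2.47 ± 0.90, adjusted p = 0.0364), a call lost without replicate 1, 2 or 4 (-1.70, -2.41 and -3.16, adjusted p = 0.209, 0.119 and 0.0654) and without the shallow libraries (adjusted p = 0.147).

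Prupe.6G262200 gave a different course in apricot, where the ecodormant rise was the smaller part of its pattern. It was at 0.520 and 0.387 CPM in A2137 at 400 chill hours and at 1.015, 0.637 and 0.144 CPM in A660 at 800 chill hours, against 0 to 0.1 CPM in the 12 earlier libraries, of which 7 had no count. The groups did not overlap, but A660 replicate 3 rests on 1 count. The fitted log2 fold change was 4.58 ± 0.67 (edgeR, adjusted p = 4.07e-07), and 5.48 without replicate 3 of every group. By summed counts, A2137 had 23 counts at 400 chill hours against 1 at 100, a depth-scaled ratio of 16.9 with an exact 95% interval of 2.75 to 697, and A660 had 23 counts at 800 chill hours against 2 at 400, a ratio of 11.6 with an interval of 2.87 to 102. The fitted A2137 step was 3.71 ± 1.13 (adjusted p = 0.00758). It was 2.57 without replicate 2 of every group and 5.99 without replicate 3, each fit leaving 1 A2137 library at each time point. The fitted A660 step, 3.32 ± 0.95 (adjusted p = 0.00407), was 2.16 and not called without replicate 1 (adjusted p = 0.146) and 4.06 without replicate 3.

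The highest levels of Prupe.6G262200 came after dormancy, at the sepal and petal visible stages, in all 4 apricot genotypes. At sepal visible it was at 4.55, 8.74 and 5.29 CPM in A2137, 17.3 and 14.4 CPM in A1956, 2.56, 5.04 and 8.76 CPM in A660 and 18.1, 27.9 and 20.98 CPM in A1267. Each of these libraries lay above each bud library of the chill time points. The increase over the last dormant collection was 3.72 ± 0.53 on the log2 scale in A2137 (adjusted p = 4.69e-07) and 3.03 ± 0.47 in A660 (adjusted p = 1.39e-06), and the A660 value was 3.93 without replicate 1 and 2.19 without replicate 3 of every group. In A1956, whose 2 libraries at 400 chill hours had no count, sepal visible buds were at least 73.3-fold higher (adjusted p = 5.36e-11), and in A1267, with 1056 counts against 2, the ratio was 498 with an interval of 137 to 4115 (adjusted p = 2.33e-14). From sepal to petal visible the gene rose further in A660 alone among the tests, to 16.3, 10.1 and 19.4 CPM (1.49 ± 0.37, adjusted p = 0.00101, and 0.0680 without replicate 1).

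Flowers of the 2 early apricots differed in Prupe.6G262200. A2137 flowers held 0.0923, 0 and 0.0677 CPM, 3 counts in all, against 4.96 and 9.81 CPM in A1956 flowers, 162 counts in all, so that the level was 137-fold lower in A2137 with an exact interval of 46.2 to 673 (edgeR, adjusted p = 6.27e-11). The same A2137 flowers were 74.2-fold lower than A2137 petal visible buds, with an interval of 25 to 363 (adjusted p = 6.36e-10). The fitted log2 differences were -6.85 between the flowers, -7.92 without replicate 1 and -5.77 without replicate 2 of every group, and -5.98 from petal visible buds, -6.66 without replicate 1. In A1956 flowers the fitted change from petal visible buds was -1.11 ± 0.44 (adjusted p = 0.0627). At petal visible the early genotypes were already lower than the late ones (-0.98 ± 0.27, adjusted p = 0.00574), a call lost without replicate 2 of every group (-0.73, adjusted p = 0.216).

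In peach, Prupe.6G262200 was at 0, 0.975, 2.38 and 0.877 CPM in A209 and at 2.67, 2.26, 2.49 and 1.74 CPM in A340 at 600 chill hours, against 0, 0, 0 and 0.318 CPM in A318 and 0, 0.149 and 0 CPM in A323. The groups overlapped through A209 replicate 1, which had no count, and the 4 A340 libraries were all above the high chill range. This was a log2 fold change of 4.25 ± 0.95 (edgeR, adjusted p = 0.000217), 5.01 without replicate 3 and 5.74 without replicate 4 of every group. In A340 the gene was at 0, with no count in 4 of 4 libraries, both at 0 chill hours and at pre-bloom, and the pre-bloom level was at least 1.88-fold lower than at 600 chill hours (adjusted p = 0.00935, 0.0677 without replicate 3 of every group and 0.0857 without the shallow libraries). The A340 step from 100 to 600 chill hours (4.23 ± 1.24, adjusted p = 0.00670) did not pass without replicate 2 or 3 (adjusted p = 0.0617 and 0.0579), and the A209 step (1.96 ± 1.16, adjusted p = 0.226) did not pass at all. No peach collection is labelled as sepal or petal visible, and how pre-bloom relates to these stages is not given. At pre-bloom the high chill A318 held 43 counts (mean 0.726 CPM) and A323 held 3 (mean 0.0908 CPM). At 1000 chill hours they held 4 and 1, and no difference among these groups was called.

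**Figure D3:**
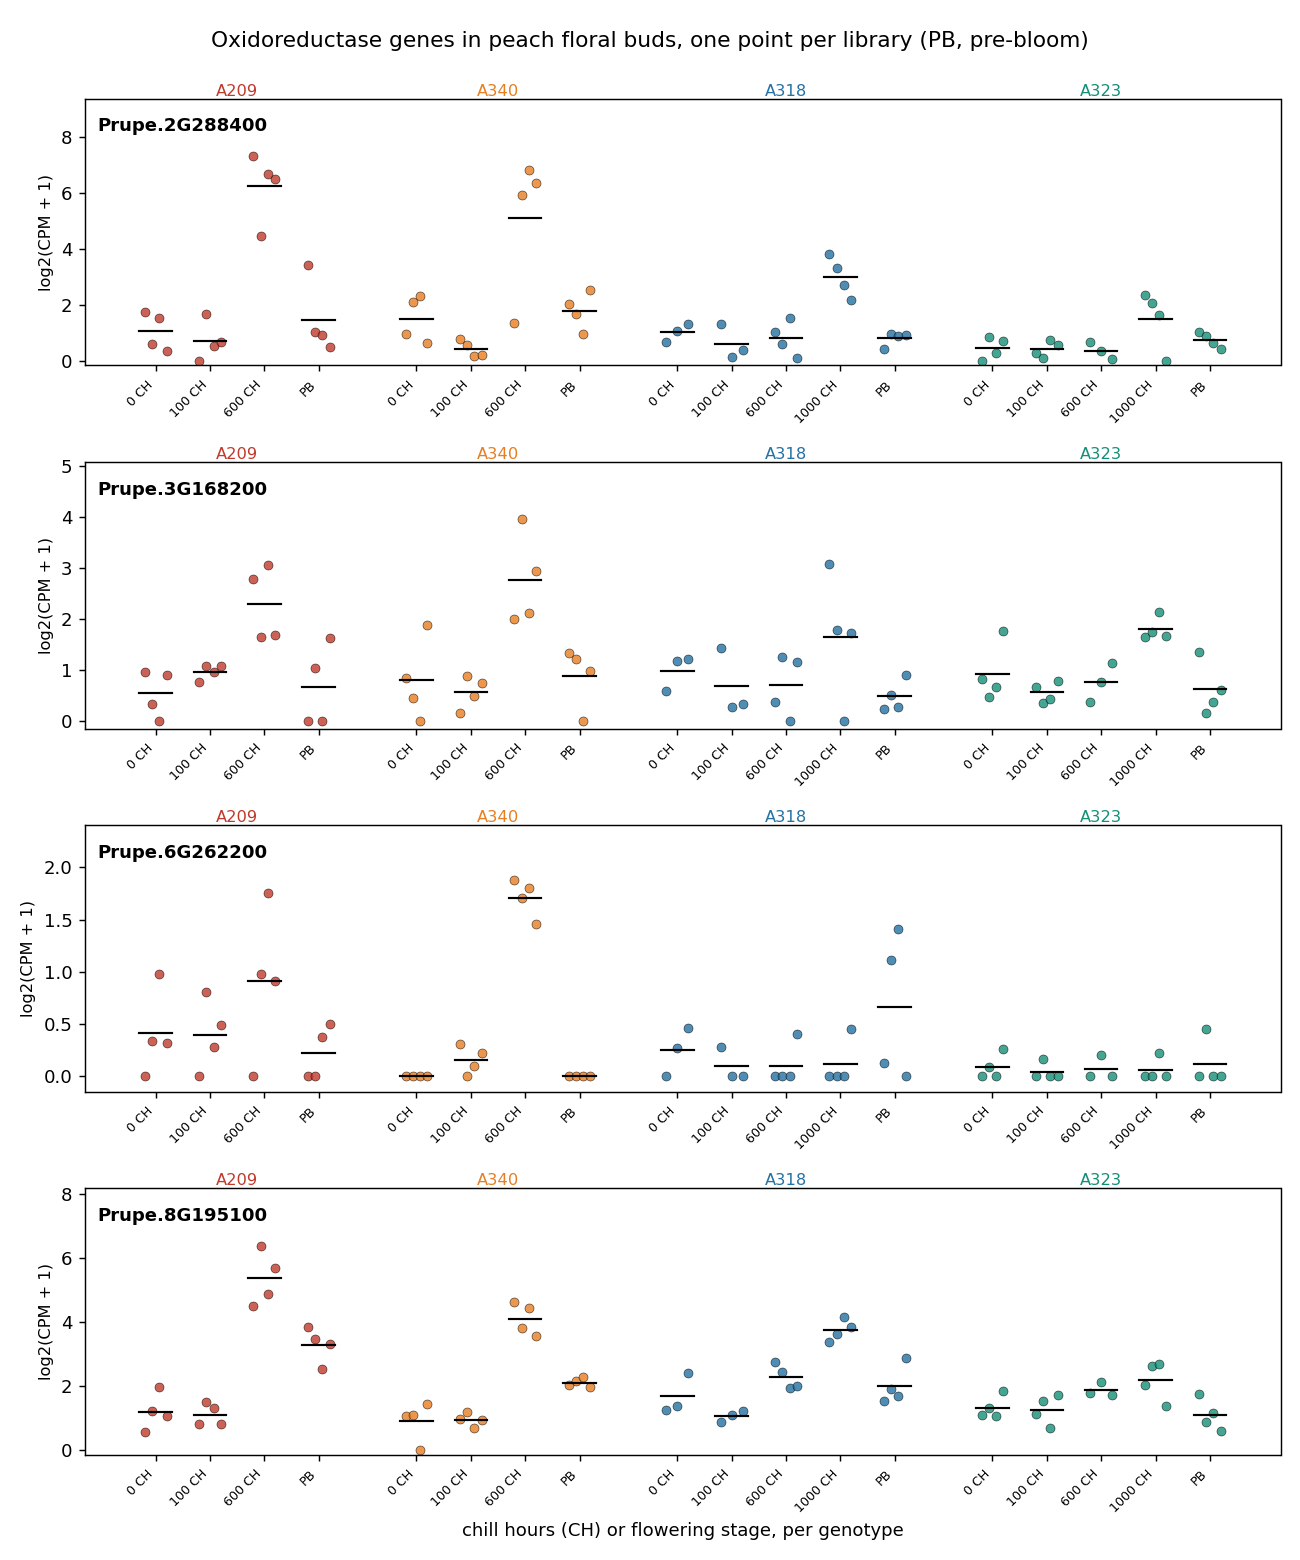
Levels of the 4 genes in the peach libraries, as log2(CPM + 1), by genotype and time point, with 1 point for each library and a line at the mean of the points. All 4 genes have their highest group means at 600 chill hours in the low chill genotypes, and Prupe.8G195100 also climbs in the high chill A318, to between 9.34 and 16.7 CPM at 1000 chill hours.

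Prupe.8G195100 had the smallest fold change of the 4 in apricot. It was at 0.422 and 0.664 CPM in A2137 at 400 chill hours and at 1.72, 1.06 and 4.04 CPM in A660 at 800 chill hours, against 0.0679 to 0.619 CPM in the 12 earlier libraries. The groups overlapped through A2137, and the 3 A660 libraries were above the earlier range. The log2 fold change was 2.17 ± 0.40 (edgeR, adjusted p = 2.05e-05), with 2.27 ± 0.55 within A660 (adjusted p = 0.000780) and 1.40 ± 0.75 within A2137 (adjusted p = 0.132). The A660 step was 1.63 without A660 replicate 3 at 800 chill hours (adjusted p = 0.0151), the library that was highest for this gene and lowest for Prupe.2G288400.

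Later in apricot, Prupe.8G195100 parted the genotypes. In A660 it was lower at sepal visible, with 0.262, 0.296 and 0.395 CPM (-2.72 ± 0.55, adjusted p = 6.57e-05), and -2.08 without A660 replicate 3 at 800 chill hours. In A1267 it was higher at sepal visible, with 0.821, 1.35 and 1.60 CPM against 0.239, 0.346 and 0 CPM at 800 chill hours (2.72 ± 0.61, adjusted p = 0.000175), and 1.87 without replicate 3 or 3.44 without replicate 2 of every group. A2137 flowers had 1.34, 1.46 and 2.23 CPM against 0.186, 0.331 and 0.397 CPM in petal visible buds (2.35 ± 0.55, adjusted p = 0.000332). A1956 flowers had 1.73 and 1.65 CPM, with no call against petal visible buds.

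In peach, Prupe.8G195100 was higher in the low chill genotypes at 600 chill hours and rose later in high chill A318. It was at 21.8, 83.0, 28.5 and 50.4 CPM in A209 and at 23.8, 13.1, 20.97 and 10.7 CPM in A340 at 600 chill hours, against 5.75, 4.49, 2.86 and 2.997 CPM in A318 and 2.47, 3.34 and 2.32 CPM in A323. Each low chill library lay above each high chill library. This was a log2 fold change of 3.09 ± 0.32 (edgeR, adjusted p = 2.29e-12), and the steps from 100 to 600 chill hours were 5.39 ± 0.49 in A209 (adjusted p = 1.88e-13) and 4.18 ± 0.46 in A340 (adjusted p = 6.36e-11).

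High chill A318 already had more Prupe.8G195100 at 600 than at 100 chill hours, when it was at 0.848, 1.12 and 1.32 CPM (1.81 ± 0.49, adjusted p = 0.00845, and 0.112 without replicate 2), and more again at 1000 chill hours, with 9.34, 11.4, 16.7 and 13.5 CPM (1.71 ± 0.43, adjusted p = 0.00239). A323 was at 3.11, 5.14, 5.49 and 1.63 CPM at 1000 chill hours, lower than A318 in each library. That genotype difference was 1.72 ± 0.46 (adjusted p = 0.0450), in a comparison in which only 0.554% of all genes were called higher and 0.452% lower for A318, and it did not pass as each of the 4 replicate numbers was left out (adjusted p = 0.0928 to 0.234) or without the shallow libraries (adjusted p = 0.334).

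At pre-bloom Prupe.8G195100 was again higher in low than in high chill peaches, with 13.5, 10.05, 4.75 and 8.89 CPM in A209 and 3.06, 3.49, 3.92 and 2.89 CPM in A340, against 1.92, 2.75, 2.23 and 6.42 CPM in A318 and 2.36, 0.847, 1.23 and 0.516 CPM in A323 (1.45 ± 0.34, adjusted p = 0.000554). The groups overlapped through A318 replicate 4, and 1 of 4 genes was called where 13.9% of all genes were called higher and 18.6% lower. For Prupe.2G288400 the same comparison gave 1.21 ± 0.72 (adjusted p = 0.194). Within each of the 4 genotypes Prupe.8G195100 was lower at pre-bloom than at the last chill time point, by log2 fold changes of -2.40 ± 0.43 in A209, -2.33 ± 0.45 in A340, -1.96 ± 0.43 in A318 and -1.77 ± 0.50 in A323 (adjusted p = 3.81e-05, 0.000111, 0.000454 and 0.00693). The A323 call was lost without replicate 2 or 3 (adjusted p = 0.104 and 0.0666). A318 exceeded A323 at pre-bloom (1.52 ± 0.47, adjusted p = 0.0355), with 1 of 4 genes called where 4.61% of all genes were called higher and 1.92% lower, and 0.76 without replicate 4 (adjusted p = 0.563).

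Counted by step, the calls of the 4 genes were as follows. Into ecodormancy, 3 of 4 were higher in A2137 at 400 against 100 chill hours (22.8% of all genes higher, 19.8% lower), 4 of 4 in A660 at 800 against 400 chill hours (25.2% and 21.9%), 3 of 4 in A209 (16% and 11.4%) and 4 of 4 in A340 (15.8% and 12.6%) at 600 against 100 chill hours. Between 100 and 400 chill hours 0 of 4 were called in A660 (11% higher and 10.6% lower over all genes) or A1267 (9.87% and 10.5%). Over the same chill hours as the ecodormant steps none of the 4 was called in A1956 at 400 (1.85% and 1.21%), in A1267 at 800 (15.7% and 13.8%) or in A323 at 600 (6.68% and 6.82%), and 1 of 4 was in A318 at 600 (5.83% and 6.73%). At sepal visible against the last chill time point, 1 gene was higher and 2 were lower in A2137 (20% of all genes higher, 17.4% lower), 1 higher and 1 lower in A1956 (26.5% and 20.7%), 1 higher and 3 lower in A660 (29.4% and 26.9%) and 2 higher and 0 lower in A1267 (32% and 30.7%). From sepal to petal visible, 1 of 4 was higher in A660 (21.4% and 22.8%) and 1 of 4 lower in A1267 (16.8% and 16.2%), with 0 of 4 called in A2137 (21.2% and 23.6%) or A1956 (20.7% and 21.7%). From petal visible to flower, 2 were higher and 1 was lower in A2137 (28.7% and 26.9%), with 0 of 4 called in A1956 (12.5% and 12.4%). Early against late genotypes gave 1 of 4 lower at sepal visible (15.6% and 12.6%) and 1 of 4 lower at petal visible (15.3% and 14.3%), and A2137 flowers against A1956 flowers gave 1 of 4 lower (19.6% and 20.6%). From 600 to 1000 chill hours, 2 of 4 were higher in A318 (19.3% and 11.7%) and 1 of 4 in A323 (8.56% and 8.83%). Out of dormancy in peach, 4 of 4 were lower at pre-bloom in A340 (9.67% higher and 11.8% lower over all genes), 2 of 4 in A209 (6.43% and 9.41%), 3 of 4 in A318 (12.8% and 12.9%) and 1 of 4 in A323 (11.8% and 9.17%).

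Among samples at 0 and 100 chill hours the 4 genes gave no call. In the 10 contrasts between these time points or between phenotypes at them, 40 tests with edgeR gave 0 calls at an adjusted p under 0.05, with 3 at an unadjusted p under 0.05 and a smallest adjusted p of 0.0698. Of all genes, 11.7% were called higher and 9.99% lower at 100 against 0 chill hours in A1956, 14% and 13.9% in A660, 6.53% and 7.43% in A209, 8% and 8.38% in A340, 6.49% and 8.96% in A318, and 7.83% and 13.8% in A323. Between early and late apricots the shares were 2.77% and 2.17% at 0 and 15.1% and 14.7% at 100 chill hours, and between low and high chill peaches 0.421% and 1.55% at 0 and 2.87% and 2.91% at 100 chill hours. For Prupe.3G168200 and Prupe.6G262200, which had counts of 0 to 36 and 0 to 8 in these libraries, small differences were not detectable at this depth. The same holds for Prupe.8G195100 in apricot. Its summed counts at 0 and 100 chill hours were 3 and 7 in A2137 and 2 and 10 in A1267.

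The difference between genotypes in the step itself was tested as an interaction. The step from 400 to 800 chill hours was larger in A660 than in A1267 for 3 of 4 genes, where 10.1% of all genes were called higher and 8.95% lower: Prupe.2G288400 by 5.93 ± 1.12 (adjusted p = 0.000186), Prupe.3G168200 by 2.79 ± 0.87 (adjusted p = 0.0198) and Prupe.6G262200 by 4.90 ± 1.59 on the log2 scale (adjusted p = 0.0263). Prupe.8G195100 differed by 2.39 ± 1.01 (adjusted p = 0.0917). The step from 100 to 400 chill hours was larger in A2137 than in A1956 for 2 of 4 genes (13% higher and 12.1% lower), Prupe.2G288400 by 7.29 ± 1.37 (adjusted p = 9.94e-05) and Prupe.3G168200 by 3.26 ± 1.05 (adjusted p = 0.0195). The 3 calls between A660 and A1267 were fragile: without replicate 1 of every group none passed (adjusted p = 0.0529 for Prupe.2G288400). Prupe.3G168200 and Prupe.6G262200 did not pass without replicate 2 or 3 either (adjusted p = 0.0685 to 0.103). Between A660 and A1267, the values over these exclusions were 4.59 to 7.11 for Prupe.2G288400, 1.85 to 3.59 for Prupe.3G168200 and 3.46 to 5.73 for Prupe.6G262200. Between A2137 and A1956, leaving out any replicate number left 1 library in groups of at least 1 of the genotypes, so only fold changes are given. They were 7.07 to 7.58 for Prupe.2G288400 and 3.07 to 3.44 for Prupe.3G168200, which does not show that the calls hold. Set against a 2-fold change, with no library left out, Prupe.3G168200 did not pass between A2137 and A1956 (edgeR, adjusted p = 0.105). Between A660 and A1267, Prupe.3G168200 and Prupe.6G262200 did not pass that test either (adjusted p = 0.175 and 0.152).

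In peach the step from 100 to 600 chill hours was larger in the low than in the high chill genotypes for 3 of 4 genes, where 14.3% of all genes were called higher and 11.9% lower. The difference was 7.15 ± 1.08 for Prupe.2G288400 (adjusted p = 3.62e-07), 3.45 ± 0.46 for Prupe.8G195100 (adjusted p = 1.90e-08) and 2.39 ± 0.84 for Prupe.3G168200 (adjusted p = 0.0273). The last of these was lost without replicate 1, 2 or 3 of every group (adjusted p = 0.168, 0.157 and 0.0522). Without replicate 4 it was 3.17, and that of Prupe.2G288400 was 6.53. For Prupe.6G262200 it was 2.29 ± 1.78 (adjusted p = 0.377).

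Genotypes were also compared directly at the same chill hours. At 800 chill hours A660 exceeded A1267 for 4 of 4 genes (25.8% of all genes higher, 21.2% lower), and the 3 libraries of each did not overlap for any of them. How often this holds over all genes was not counted, and for Prupe.6G262200 it rests on 1 count in A660 replicate 3. The log2 fold changes were 6.06 ± 0.61 for Prupe.2G288400 (adjusted p = 1.22e-10), 2.61 ± 0.51 for Prupe.3G168200 (adjusted p = 5.97e-05) and 3.48 ± 0.60 for Prupe.8G195100 (adjusted p = 8.66e-06), and Prupe.6G262200 had 23 counts against 2, a ratio of 14.9 with an interval of 3.69 to 131 (adjusted p = 0.00137). Without replicate 1 of every group Prupe.3G168200 (1.62) and Prupe.6G262200 (2.70) did not pass (adjusted p = 0.0518 and 0.0569). Prupe.2G288400 was 4.26 without replicate 2 and 7.003 without replicate 3, and Prupe.8G195100 was 4.63 without replicate 2, 2.20 without replicate 3 and 2.86 without the 1 library of A660 replicate 3 at 800 chill hours. At 400 chill hours A2137 exceeded A1956 for 3 of 4 genes (24.5% and 21%), Prupe.2G288400 by 7.97 ± 0.76 (adjusted p = 8.42e-11), Prupe.3G168200 by 2.34 ± 0.59 (adjusted p = 0.00121) and Prupe.6G262200, with no count in A1956, at least 2.09-fold (adjusted p = 0.00374). Leaving out replicate 2 left 1 library in each of these groups. Prupe.3G168200 then differed by 2.13, and the fitted difference of Prupe.6G262200 moved from 5.82 to 5.50. The contrast of both early with both late genotypes at 400 chill hours called 2 of 4 (22.8% and 20.9%), Prupe.2G288400 by 4.33 ± 0.62 (adjusted p = 3.44e-07) and Prupe.3G168200 by 1.86 ± 0.45 (adjusted p = 0.000893), but the early genotypes were not alike: A1956, with 0.767 and 0.475 CPM of Prupe.2G288400, lay beside the late ones.

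Genes of the anther moved with Prupe.2G288400. The 5 marker genes of the tapetum, the anther layer that feeds developing pollen (MS2, LAP6, CYP703A2, CYP704B1 and DRL1, which make sporopollenin in Arabidopsis), were called higher in 5 of 5 cases both in the ecodormant apricots and in low chill peaches at 600 chill hours, where 27.2% and 22.9% of all genes were. The study had itself selected MS2 and LAP6 by their fold change in these libraries, so their direction is no independent evidence. Their summed level was 51.1 to 3004 CPM in the 5 ecodormant apricot libraries, against 2.32 to 7.71 CPM in the 12 earlier ones, and 134 to 4539 CPM in the 8 low chill peach libraries, against 6.05 to 81.2 CPM in the 7 high chill ones. Within a genotype it was lowest in the libraries in which Prupe.2G288400 was lowest: 51.1 CPM in A660 replicate 3, against 1198 and 1740 CPM in replicates 1 and 2, and 134 CPM in A340 replicate 1, against 2640 to 2771 CPM in the other 3. Prupe.8G195100 ran the other way, being highest in A660 replicate 3 (4.04 CPM) and A340 replicate 1 (23.8 CPM) and, in A209, in replicate 2 (83.0 CPM), where the marker sum was lowest for that genotype (759 CPM). Prupe.3G168200 was lowest in A340 replicate 1 (2.99 CPM) and A209 replicate 2 (2.13 CPM), but in A660 in replicate 2 (0.637 CPM), where the marker sum was highest. From the last dormant collection to sepal visible, Prupe.6G262200 rose in each apricot genotype. The median marker sum fell in A2137 (2823 to 3.51 CPM), A660 (1198 to 3.62 CPM) and A1956 (3.71 to 3.36 CPM) and rose in A1267 (1.31 to 9.18 CPM). The part of the anther markers in these results was not tested.

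**Figure D4:**
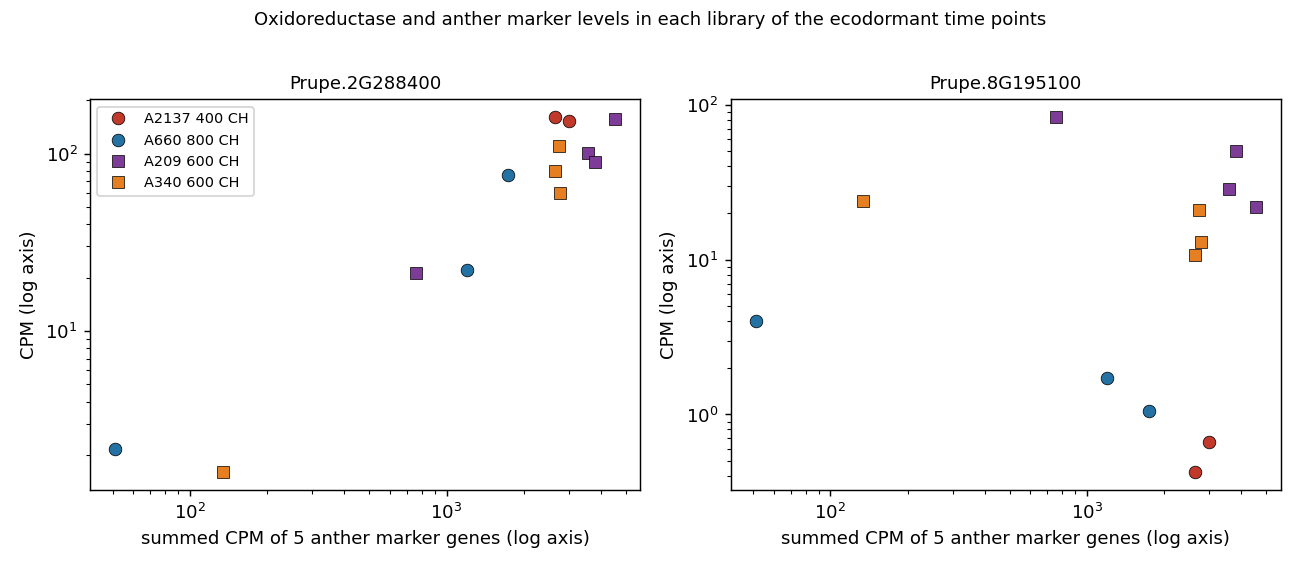
Levels of Prupe.2G288400 (left) and Prupe.8G195100 (right) in each ecodormant library against the summed level of 5 anther marker genes, both in CPM on log axes, with circles for apricot and squares for peach. A660 replicate 3 and A340 replicate 1, at 51.1 and 134 CPM of the markers, hold the lowest Prupe.2G288400 (2.16 and 1.60 CPM) and the highest Prupe.8G195100 of their genotypes (4.04 and 23.8 CPM).

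Of the 6 genes annotated to the GMC family in the study's sheets, both members included, 4 were called higher and 0 lower in the ecodormant apricots (median log2 fold change 2.11), where 27.2% of all genes were higher and 22.8% lower. By single step, 5 of 6 were higher in A2137 at 400 against 100 chill hours (22.8% of all genes). In A660 at 800 against 400 chill hours 6 of 6 were (25.2%), and 6 of 6 were higher in early than in late genotypes at 400 chill hours (22.8%). The late genotypes had falls before: 0 higher and 2 lower in A660 at 400 against 100 chill hours (11% and 10.6% of all genes), and 0 and 1 in A1267 (9.87% and 10.5%). In peach from 100 to 600 chill hours 4 were higher and 1 lower in A209 (16% and 11.4%), and 4 and 0 in A340 (15.8% and 12.6%). In low chill peaches at 600 chill hours 3 of 5 tested were higher and 0 lower (median 2.83), where 22.9% of all genes were higher and 19.5% lower, and those 3 are all genes that the study named for this direction. Prupe.5G089100, which the study also names as an oxidoreductase, rose by 3.37 ± 0.32 in apricot and 3.25 ± 0.27 in peach, and Prupe.3G049600 was higher by 0.84 ± 0.15 in apricot alone among the 2 tests, with 0.02 ± 0.17 in peach. Prupe.1G092700 gave 0.28 ± 0.17 in apricot and -0.35 ± 0.25 in peach and was called in neither, and Prupe.1G092400 gave 0.24 ± 0.20 in apricot and was below the count filter in peach.

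Beside the family, both of the other oxidoreductases, of which Prupe.5G089100 is 1, and all 5 peroxidases that the study names were called higher in each species (27.2% of all genes in apricot and 22.9% in peach), again genes that the study picked on these libraries. Of 10 genes that make or remove reactive oxygen species, 3 were higher and 5 lower in apricot (27.2% and 22.8% of all genes), and 3 higher and 4 lower in peach (22.9% and 19.5%), with 3 of 10 near the share over all genes. RBOHF and RBOHB, NADPH oxidases that make superoxide, and MDAR4, which regenerates ascorbate, were the 3 that were higher in both species. One copy each of MSD1 (a superoxide dismutase) and GPX6 (a glutathione peroxidase), with DHAR2 and MDAR6, which recycle ascorbate, were lower in both, and RBOHC was lower in apricot. The dormancy genes DAM5 and DAM6 were lower in 2 of 2 cases in each species.

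Across the group means of log2(CPM + 1), a description over 24 apricot and 18 peach groups, Prupe.2G288400 and Prupe.3G168200 were related by a Pearson r of 0.89 in apricot, the highest of the 6 pairs there, and 0.88 in peach. Prupe.6G262200 was related to Prupe.2G288400 by r = 0.73 in peach and -0.14 in apricot, and Prupe.8G195100 to Prupe.2G288400 by 0.89 in peach and 0.34 in apricot. Groups of a species share trees, normalization and few high groups, on which these values rest. Among all genes tested in both species, the 3 most like Prupe.2G288400 by the smaller of the 2 coefficients were Prupe.1G141300 (0.983), Prupe.2G143200 (0.981) and Prupe.5G163000 (0.976), and those most like Prupe.3G168200 were Prupe.4G018600 (0.919), Prupe.3G173700 (0.915) and Prupe.1G310300 (0.914). For Prupe.6G262200 they were Prupe.5G212900 (0.905), Prupe.5G198600 (0.888) and Prupe.2G212500 (0.880), and for Prupe.8G195100 Prupe.1G111700 (0.858), Prupe.7G196900 (0.856) and Prupe.7G189800 (0.850). With Spearman's rank coefficient in place of Pearson's, none of these was kept for the first 3 genes and 1 for Prupe.8G195100, Prupe.7G196900.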

How the data were processed

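The authors trimmed reads (single-end in apricot, paired-end in peach) with skewer, removed ribosomal reads in peach, aligned both species to the Prunus persica v2.0 genome with STAR 2.5.3a and counted reads over exons with HTSeq, with the DAM region taken from the v1.0 annotation. They deposited raw counts per gene for each library, with no normalization. The study reports ribosomal RNA contamination in most peach libraries. Its share was a significant factor in transcriptome variation there, with no significant interaction with genotype or time point. That share was not entered in the fits here. The strand setting and the treatment of reads shared between gene copies are not given in the sources used here, and apricot reads were aligned to the genome of another species.

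From these counts, groups were built from genotype and time point in the labels (24 apricot and 18 peach groups), and phenotypes and stages were taken from the paper. Each species was fitted on its own in R 4.3.3 with edgeR 4.0.16 (filterByExpr with a minimum count of 10 and a minimum total of 15, TMM, glmQLFit, glmQLFTest against no change) and limma 3.58.1. P-values were adjusted by Benjamini-Hochberg over all genes tested and called under 0.05. The SE is the log2 fold change over the root of the F statistic. Steps from a group of 1 library, A2137 and A1267 at 0 chill hours, carry no test. Both groups do enter the tested early against late contrast at 0 chill hours. A2137 at 0 chill hours also enters the reference of the apricot ecodormancy comparison. In these tests the spread was estimated from the apricot groups as a whole. Ratios of 3 or fewer summed counts have exact 95% binomial intervals, and a group without counts is held at 3 counts in each library. Intervals and floors cover counting error only. Any pair of libraries within a group differed by a chi-square per gene of at least 6.85 (apricot) or 2.94 (peach), so none is a copy.

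The genes named with values are the 4 members, the GMC list and the 3 genes most alike to each member. Lists of other oxidoreductases, peroxidases, genes of reactive oxygen species, DAM genes and anther markers are given by count, and their genes named without values (except DAM6) were singled out after their values were seen. The members and lists were chosen with earlier results of these data known. The RefSeq name table at hand held none of the 4 identifiers, so gene names come from the study's text and gene sheets. Alternatives were DESeq2 1.42.0 (Wald test, and its size factors in edgeR), no filter, a test against a 2-fold change, a replicate block, replicate numbers left out in turn, shallow libraries left out, stage groups, 600 chill hour libraries alone, raw-total CPM and Spearman's coefficient. The fits were tested on simulated data with changes placed only in genes of higher counts, so calls at low counts were not covered. Figures were drawn with matplotlib in Python.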

Additional observations from a re-analysis of the deposited data

Results flagged for a closer look

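In groups of 4 peach libraries, a single library lay far from the other 3 in 6 of 60 gene and group combinations. For values that vary continuously chance gives about 1 in 20, a share that does not apply to the 5 groups below in which the other libraries are all at 0, since any single count then stands apart. Prupe.2G288400 was at 9.68 CPM in A209 replicate 1 at pre-bloom, from 5 counts, against 0.417 to 1.06 CPM in the other 3. The other 5 were all Prupe.6G262200, with 1 library holding a few counts and the rest none: 0.367 CPM in A318 replicate 4 at 1000 chill hours, 0.318 CPM in A318 replicate 4 at 600, 0.121 CPM in A323 replicate 2 at 100, 0.162 CPM in A323 replicate 3 at 1000 and 0.363 CPM in A323 replicate 2 at pre-bloom.

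Genotypes differed in the size of a step by the interaction test in edgeR in 8 cases. Between A660 and A1267 from 400 to 800 chill hours the log2 fold changes differed by 5.93 for Prupe.2G288400, 2.79 for Prupe.3G168200 and 4.90 for Prupe.6G262200. Between A2137 and A1956 from 100 to 400 chill hours they differed by 7.29 for Prupe.2G288400 and 3.26 for Prupe.3G168200. Between low and high chill peaches from 100 to 600 chill hours they differed by 7.15 for Prupe.2G288400, 2.39 for Prupe.3G168200 and 3.45 for Prupe.8G195100.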

How the results depend on the processing

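The calls of the 4 genes in ecodormant apricots and in low against high chill peaches at 600 chill hours passed under each alternative that could be fitted. The log2 fold changes were 6.89 to 7.37 for Prupe.2G288400, 2.90 to 3.69 for Prupe.3G168200, 3.23 to 5.48 for Prupe.6G262200 and 1.84 to 2.49 for Prupe.8G195100 in apricot over 9 alternatives, and 6.73 to 7.82, 2.55 to 3.35, 4.06 to 5.74 and 2.97 to 3.18 in peach over 12. The apricot comparison without replicate 2 could not be fitted, because A2137 at 0 chill hours has only that number. Set against a 2-fold change, the test called 2126 genes higher and 380 lower in apricot, against 6105 and 5130 set against no change, and 2219 higher and 852 lower in peach, against 5170 and 4394. Grouping all endodormant apricot libraries by stage called 2901 lower. Over all 75 called results of the 4 genes, 614 of 700 alternative values kept the call, 86 lost it and 0 changed direction. Of 9 further printed results, 1 changed direction, the peach interaction of Prupe.6G262200, at -0.020 to 4.59 as replicate numbers were left out. DESeq2 called Prupe.2G288400 at pre-bloom between low and high chill peaches (1.71, adjusted p = 0.0376). The exclusions of A660 replicate 3 and A340 replicate 1 were chosen after seeing the data. The cause of these shifts was not tested.

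The labels do not say whether replicate numbers pair the libraries. Same-numbered libraries of a genotype did not all deviate together, with lowest correlations of -0.11 to -0.41. In apricot the median correlation was higher for the same number than for different numbers in A1267 (0.168 against -0.096), A660 (0.075 against -0.039) and A2137 (0.031 against -0.033). A1956 has 2 libraries in each group, so its value for different numbers (-0.0014) mirrors that for the same number. The same-number correlations there had a median of 0.0014 and ranged from -0.136 to 0.210. A replicate block was genotype with replicate number within genotypes, and replicate number alone, across genotypes, for low against high chill peaches and for A318 against A323. With such a block Prupe.2G288400 gave 6.89 in apricot and 7.38 in peach, Prupe.3G168200 gave 3.58 and 3.01, Prupe.6G262200 gave 4.65 and 4.42, and Prupe.8G195100 gave 2.12 and 3.06. The block lost the difference of A318 and A323 in Prupe.8G195100 at 1000 chill hours (adjusted p = 0.0537) and called Prupe.3G168200 lower at pre-bloom in A323 (-2.39, adjusted p = 0.0424, against -2.23 and 0.0645 without it), as did DESeq2 (-2.22, adjusted p = 0.0362) and leaving out replicate 1 (-3.21, adjusted p = 0.0324). In libraries under about 3 counts of a gene, mainly for Prupe.6G262200, depth limits the values.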
